A study of Mus musculus with 28 samples.

Results

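Ciita encodes the class II transactivator (CIITA), and 3 of the 26326 regions with counts of the histone mark H3K27me3 were assigned to it. All 3 were taken, as every region whose nearest gene in the deposited annotation was Ciita. Ciita was singled out because of the measured values of its middle region in the same 12 libraries described here, so those values are given as a description, without a test. The libraries came from microglia of adult male C57BL/6 wild-type (WT) mice, sorted by flow cytometry after brains of 2 to 6 mice of one condition had been pooled. CD229+CD11c+, CD229+CD11c- and CD229-CD11c- microglia came from mice fed 0.2% cuprizone for 4 weeks, a copper chelator that kills oligodendrocytes and so removes myelin. Basal microglia (CD44low CD45low CD11blow) came from mice on a regular diet. Ly9 encodes CD229, a receptor of the SLAM family, and Itgax encodes the integrin chain CD11c. Each of the 4 groups had 3 H3K27me3 libraries with counts, which for basal microglia were replicates 3, 4 and 5. Basal replicates 1 and 2, with their inputs, had been used by the authors to call the regions. Nothing in the labels says that replicates came from separate groups of mice, so p-values measure the spread between these libraries.

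CIITA belongs to the NLR family and does not bind DNA itself. It docks onto the RFX, CREB and NF-Y proteins that sit on the X and Y boxes of MHC class II promoters, and without it those genes are barely transcribed. The gene has several alternative promoters, which serve dendritic cells and macrophages, B cells, and cells exposed to interferon-gamma. Resting microglia carry little MHC class II on their surface, and inflammation and demyelination are settings in which some of them gain it. H3K27me3 is laid down by Polycomb repressive complex 2 and is the usual mark of silenced genes.

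The promoters that CIITA works on are shown because they are the reading end of this pathway. RefSeq promoter windows on GRCm38.p6, 250 bases before to 50 after a gene's start, were used for 8 of the 11 class II genes on the list, in 9 windows. The core of the Y box, TGATTGG, was searched on both strands as those letters. It was found in the windows of 7 of the 8 genes, H2-DMa being the exception, and in 7.82% of all 32851 windows. The lines give 60 bases before the core, the core in capitals and 20 bases after it, on the strand of the gene. They run from H2-Aa and H2-Eb1, which encode chains of the class II molecule itself, to H2-DMb1 and H2-Ob, which encode chains of the peptide-loading chaperone and of its inhibitor.
H2-Aa, chr17:34287847-34287933, minus strand: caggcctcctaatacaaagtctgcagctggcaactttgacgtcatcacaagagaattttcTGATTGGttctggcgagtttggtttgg
H2-Eb1, chr17:34305746-34305832, plus strand: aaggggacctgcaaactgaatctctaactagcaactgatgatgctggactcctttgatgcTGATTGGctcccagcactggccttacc
H2-DMb1, chr17:34153068-34153154, plus strand: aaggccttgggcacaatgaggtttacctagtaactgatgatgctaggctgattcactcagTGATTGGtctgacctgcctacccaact
H2-Ob, chr17:34238786-34238872, plus strand: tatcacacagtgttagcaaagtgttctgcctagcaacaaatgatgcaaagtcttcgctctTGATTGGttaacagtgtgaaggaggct
The core started 50, 61, 63 and 59 bases before the start site in H2-Aa, H2-Eb1, H2-DMb1 and H2-Ob. No H3K27me3 region overlapped any of the 9 windows, and the nearest region lay between 4335 and 65147 bases away. Regions were called on basal libraries only, so this does not give the level at these promoters in cuprizone microglia. H2-Ab1 had no window and is not covered by these distances. A region that overlapped that gene began at chr17:34263418, against a gene start at chr17:34263227.

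Ciita lies on the plus strand of mouse chromosome 16, at chr16:10480014-10531064 (GRCm38.p6, the same assembly as the files' mm10). Its 3 regions covered 25653 of the 51051 bases of the gene, or 50.25%, and all were annotated as intronic. The upstream region, chr16:10481154-10485766, was 4612 bp long and centred in intron 1 of 18, 3388 bp past the annotated start of transcript NM_001243760. The central region, chr16:10487211-10494907, was 7696 bp long and was the one for which the gene was chosen. The annotated start of a shorter transcript, NM_001243761, lay inside the central region, 2570 bp from its left edge, and its centre fell in intron 1 of 18 of that transcript. The downstream region, chr16:10500846-10514191, was 13345 bp long and centred in intron 7 of 18. Gaps of 1445 and 5939 bp without a called region separated the 3.

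All 3 regions were enriched over input in the basal libraries that were not part of the 12. In the authors' deposited table the log2 ratio of H3K27me3 over input was 1.70 at the upstream, 1.42 at the central and 1.73 at the downstream region. The authors' adjusted p-values in the same deposited table were 0.000157, 3.89e-05 and 1.04e-09 for the 3 regions in that order. For the central region the authors' deposited table lists log2 levels of 8.54 and 8.65 in basal H3K27me3 replicates 1 and 2, against 7.39 and 7.37 in the inputs. Among all regions of that list, the ratio over input stood at the 71st percentile for the upstream, the 41st for the central and the 73rd for the downstream region. The central region thus had the lowest of the 3 ratios over input in resting microglia.

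Within the 12 libraries, the central region carried less H3K27me3 in CD229+CD11c+ than in CD229+CD11c- microglia, at a fold of 0.493, and basal and CD229-CD11c- microglia lay in between. Levels are given as tags per 1000000 tags in the regions (CPM), scaled with the trimmed mean of M-values (TMM). CD229+CD11c+ microglia had 16.1, 20.0 and 21.5 CPM in replicates 1, 2 and 3, and CD229+CD11c- microglia had 37.9, 37.9 and 41.3 CPM. CD229-CD11c- microglia had 22.3, 20.7 and 29.7 CPM, and basal microglia had 31.9, 22.4 and 23.2 CPM in replicates 3, 4 and 5. The 3 CD229+CD11c- libraries were higher than the other 9. The CD229+CD11c+ libraries lay below all basal libraries, and their highest library overlapped the lowest of the CD229-CD11c- group. In bulk libraries, fewer cells with the mark and less of the mark per cell cannot be told apart.

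**Figure D1:**
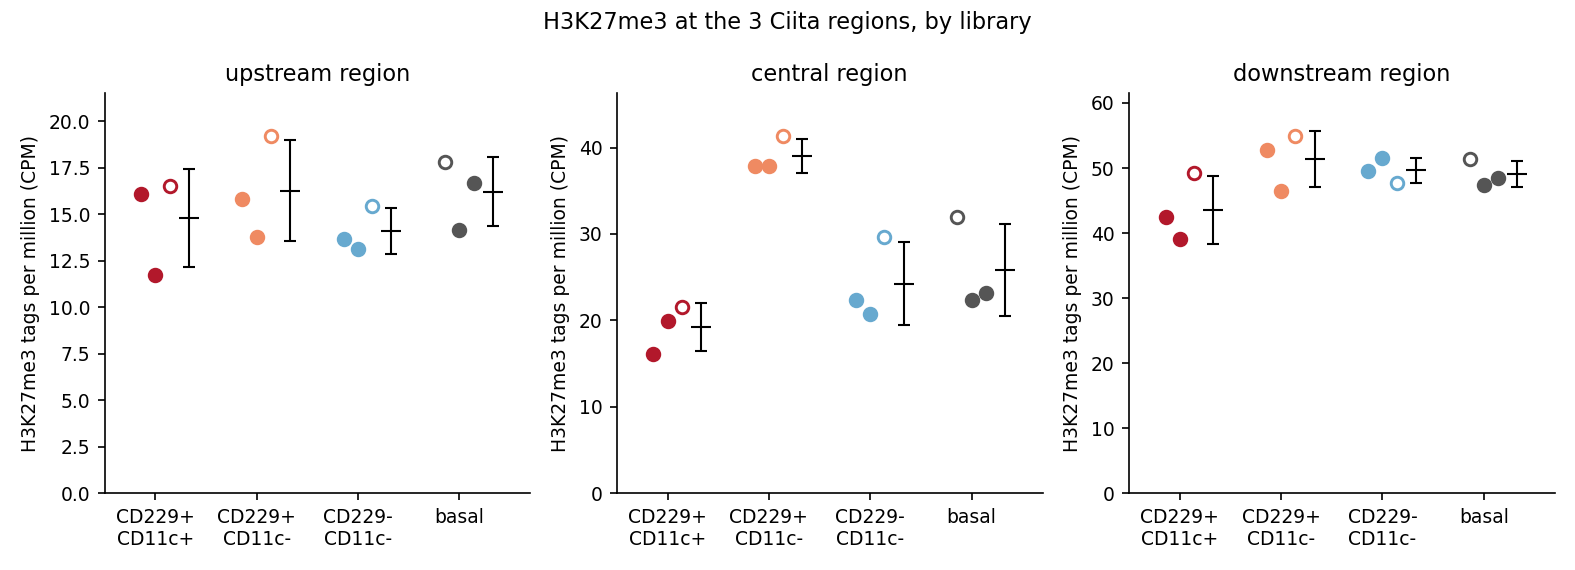
H3K27me3 level in CPM at the upstream, central and downstream Ciita regions, 1 dot per library, in CD229+CD11c+, CD229+CD11c-, CD229-CD11c- and basal microglia. Bars give mean and SD over 3 libraries, and open dots are the libraries without the tag PE150 in their title; only at the central region do the CD229+CD11c- libraries, at 37.9 to 41.3 CPM, stand clear of all others.

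The central region averaged 19.2 ± 2.78 CPM in CD229+CD11c+ and 39.0 ± 1.97 CPM in CD229+CD11c- microglia, against 24.2 ± 4.79 CPM in CD229-CD11c- and 25.8 ± 5.29 CPM in basal microglia (SD, n = 3 each). From low to high the order was CD229+CD11c+, CD229-CD11c-, basal and CD229+CD11c-. CD229-CD11c- and basal means, neighbours in that order, differed by less than the SD of either group. Fitted log2 fold changes in the central region were 0.60 ± 0.15 for CD229+CD11c- over basal and -0.42 ± 0.15 for CD229+CD11c+ over basal (SE). For CD229+CD11c- over CD229-CD11c- the log2 fold change was 0.68 ± 0.15, and for CD229+CD11c+ over CD229-CD11c- it was -0.34 ± 0.16. For CD229+CD11c+ over CD229+CD11c- it was -1.02 ± 0.15, and for CD229-CD11c- over basal it was -0.08 ± 0.15. Thus CD229+ microglia with and without CD11c differed from basal microglia in opposite directions at this place.

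The groups did not overlap at the central region in 4 of the 6 comparisons. Libraries of the first group were all higher in 16.0% of the 26326 regions for CD229+CD11c- against basal and in 12.2% for CD229+CD11c- against CD229-CD11c-. They were all lower in 12.9% of regions for CD229+CD11c+ against basal and in 11.1% for CD229+CD11c+ against CD229+CD11c-. Since the region was chosen on these contrasts, nothing is read from those shares. All CD229+CD11c- libraries lay above and all CD229+CD11c+ libraries below every basal library in 30 regions, or 0.114%. By its fold change of CD229+CD11c+ over CD229+CD11c- the central Ciita region came 2nd among these 30. A region at Pde4a, a cyclic AMP phosphodiesterase, had a log2 fold change of -2.13 and one at Plk2, a polo-like kinase, -1.01, both named after their values were seen. Among all 26326 regions, 8 had a fold change of CD229+CD11c+ over CD229+CD11c- as low as that of the central Ciita region or lower, itself included. These ranks and the share of 0.114% rest on the values for which the region was chosen, so nothing is read from them either.

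**Figure D2:**
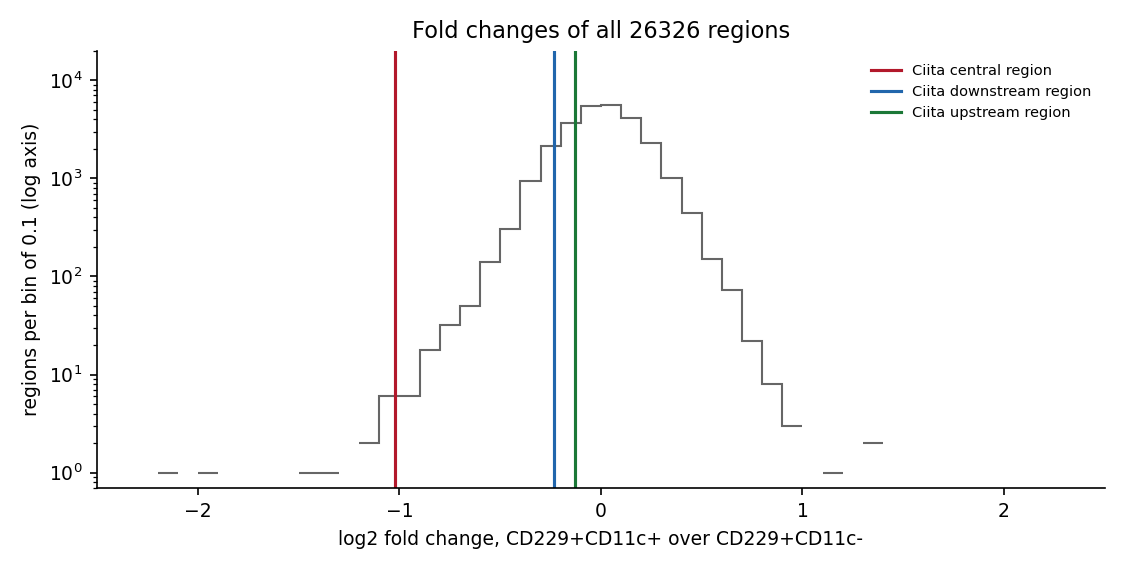
Number of regions per bin of 0.1 in log2 fold change of CD229+CD11c+ over CD229+CD11c- microglia, as an outline on a log axis, with vertical lines at the 3 Ciita regions. The central region, at -1.02, lies in the sparse lower tail, and the upstream (-0.13) and downstream (-0.23) regions lie within the bulk of all 26326 regions.

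One library per group had no PE150 tag in its title, and at the central region that library was the highest of its group in all 4 groups. The untagged library read 21.5 CPM in CD229+CD11c+, 41.3 CPM in CD229+CD11c-, 29.7 CPM in CD229-CD11c- and 31.9 CPM in basal microglia. The mean of the 2 tagged libraries was 18.0 CPM in CD229+CD11c+, 37.9 CPM in CD229+CD11c-, 21.5 CPM in CD229-CD11c- and 22.8 CPM in basal microglia, in the same order of groups. Within the tagged libraries the log2 fold changes were -1.08 for CD229+CD11c+ over CD229+CD11c-, -0.34 for CD229+CD11c+ over basal and 0.73 for CD229+CD11c- over basal. Between the untagged libraries the same log2 differences were -0.94, -0.57 and 0.37. Because these groups did not overlap, either kind of library had to give the same directions, and only the sizes are informative.

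The regions on either side of the central one, in the same gene, overlapped between the groups in all 6 comparisons. The upstream region had 16.1, 11.7 and 16.5 CPM in CD229+CD11c+, 15.8, 13.8 and 19.2 CPM in CD229+CD11c-, 13.7, 13.1 and 15.5 CPM in CD229-CD11c- and 17.8, 14.2 and 16.7 CPM in basal libraries. The downstream region had 42.4, 39.0 and 49.3 CPM in CD229+CD11c+, 52.8, 46.5 and 54.9 CPM in CD229+CD11c-, 49.5, 51.6 and 47.7 CPM in CD229-CD11c- and 51.3, 47.4 and 48.5 CPM in basal libraries. Log2 fold changes of CD229+CD11c+ over CD229+CD11c- were -0.13 ± 0.16 at the upstream and -0.23 ± 0.10 at the downstream region (SE). For CD229+CD11c- over basal they were 0.01 ± 0.16 upstream and 0.07 ± 0.10 downstream.

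Per kilobase of region, the central region held 2.49 ± 0.36 CPM in CD229+CD11c+ and 5.07 ± 0.26 CPM in CD229+CD11c- microglia, against 3.15 ± 0.62 CPM in CD229-CD11c- and 3.36 ± 0.69 CPM in basal microglia (SD, n = 3). The upstream region held 3.05 to 3.53 CPM per kilobase and the downstream region 3.27 to 3.85 CPM per kilobase as group means. The central region was therefore the least dense of the 3 in CD229+CD11c+ microglia and the densest in CD229+CD11c- microglia. As a share of the tags of all 3 Ciita regions, which needs no scaling between libraries, it made up 24.8 ± 3.33% in CD229+CD11c+ cells and 36.7 ± 1.66% in CD229+CD11c- cells. It made up 27.4 ± 4.03% in CD229-CD11c- cells and 28.2 ± 2.97% in basal cells (SD, n = 3 each). The CD229+CD11c- libraries, at 35.6% to 38.6%, did not overlap with those of any other group, whose highest share was 31.9%. Such shares again hold the central counts on which the region was chosen.

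The neighbourhood was compared next, as the local background of the gene. Besides the Ciita regions, 18 regions reached within 500 kb of the central one, 11 to the left and 7 to the right. The nearest on the left, at Nubp1, an iron-sulphur cluster assembly factor, ended 76.6 kb away. The nearest on the right, one of 3 assigned to Socs1, began 253.6 kb away, so stretches with no called region lay on either side of Ciita. To the left lay regions nearest to Grin2a, Rpl39l, Atf7ip2, Emp2, Gm1600, Tekt5 and Nubp1, and to the right regions nearest to Socs1, Prm1, Rmi2 and Gm21859.

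With edgeR's quasi-likelihood test, adjusted by Benjamini-Hochberg over all 26326 regions, 1 of the 18 neighbours rose in CD229+CD11c- over basal microglia and the same one in CD229+CD11c- over CD229-CD11c-. None fell. Of all regions, 9.52% rose and 3.47% fell in CD229+CD11c- over basal, and 6.75% rose and 1.60% fell in CD229+CD11c- over CD229-CD11c-. The region that rose, chr16:10757879-10769953, is intergenic and centred 21620 bp past the start of Socs1, the suppressor of cytokine signalling that blocks JAK kinases below the interferon-gamma receptor. It had 51.4, 54.2 and 51.8 CPM in CD229+CD11c+, 58.2, 65.9 and 60.3 CPM in CD229+CD11c-, 45.4, 47.8 and 46.6 CPM in CD229-CD11c- and 45.7, 48.5 and 45.7 CPM in basal libraries. CD229+CD11c- libraries were above all others, as at the central Ciita region, but here CD229+CD11c+ libraries were also above all basal ones. The Socs1 log2 fold change was 0.40 ± 0.08 over basal (adjusted p = 0.00158) and 0.40 ± 0.08 over CD229-CD11c- microglia (adjusted p = 0.00255), and the call held in every alternative tried. The other 2 Socs1 regions were not called, with log2 fold changes of -0.34 and -0.26 in CD229+CD11c- over basal.

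In the other 4 comparisons edgeR called 0 of the 18 neighbours. Unadjusted p-values under 0.05 numbered 2 for CD229-CD11c- over basal, 1 for CD229+CD11c+ over basal, 2 for CD229+CD11c+ over CD229-CD11c- and 3 for CD229+CD11c+ over CD229+CD11c-, and DESeq2 also called 0 in each. Of all regions, 0% were called in CD229-CD11c- over basal, and 4.33% rose and 1.47% fell in CD229+CD11c+ over basal. In CD229+CD11c+ over CD229-CD11c-, 0.395% rose and 0.152% fell, and in CD229+CD11c+ over CD229+CD11c-, 0.0532% rose and 0.771% fell. With the replicate number as a block, Rmi2, a DNA repair factor, also rose in CD229+CD11c- over CD229-CD11c- (log2 0.24, adjusted p = 0.00286), and a region at Tekt5, a tektin of the sperm tail, fell in CD229+CD11c+ over CD229-CD11c- (-0.28, adjusted p = 0.0215). Neighbour log2 fold changes spanned -0.24 to 0.44 for CD229+CD11c+ over CD229+CD11c-, with the median at -0.07. They spanned -0.28 to 0.42 for CD229+CD11c+ over basal and -0.35 to 0.40 for CD229+CD11c- over basal.

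**Figure D3:**
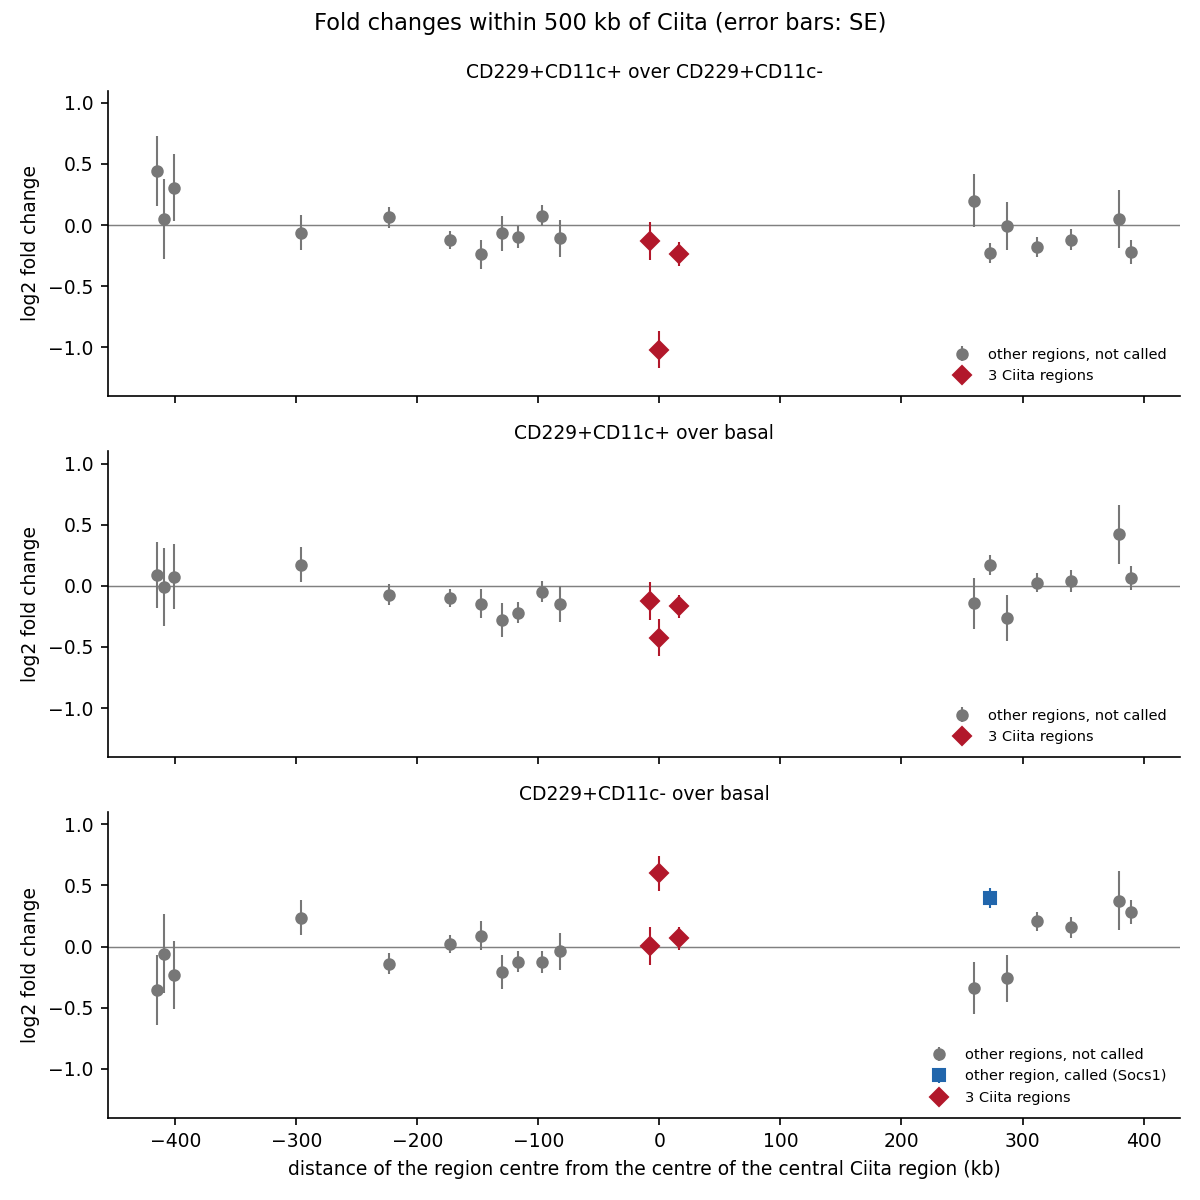
Log2 fold change with SE of the 3 Ciita regions and the 18 other regions within 500 kb, against the distance of each region's centre from that of the central Ciita region, for CD229+CD11c+ over CD229+CD11c-, CD229+CD11c+ over basal and CD229+CD11c- over basal microglia. The central Ciita region sits at -1.02, -0.42 and 0.60 in the 3 panels, and the square marks the Socs1 region called at 0.40.

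Set against this neighbourhood, central Ciita tags amounted to 2.89 ± 0.42% of the tags of the 18 neighbours in CD229+CD11c+ cells and to 5.52 ± 0.20% in CD229+CD11c- cells. They amounted to 3.59 ± 0.79% in CD229-CD11c- and 3.78 ± 0.72% in basal microglia (SD, n = 3 each). In single libraries it was 2.40%, 3.10% and 3.16% in CD229+CD11c+, 5.40%, 5.41% and 5.75% in CD229+CD11c-, 3.19%, 3.09% and 4.50% in CD229-CD11c- and 4.61%, 3.30% and 3.43% in basal microglia. CD229+CD11c- libraries were the highest on this scale too, which holds the same central counts on which the region was chosen. The neighbours' summed level was 665 ± 18.4 CPM in CD229+CD11c+ and 707 ± 10.4 CPM in CD229+CD11c- microglia, 676 ± 20.0 CPM in CD229-CD11c- and 682 ± 8.84 CPM in basal microglia. Group means of the neighbours differed by less, in proportion, than those of the central Ciita region. The central region was chosen for its group differences and the neighbours were not, so nothing is read from that contrast.

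Regions outside the 500 kb window were searched for levels like those of the central Ciita region. Of 20274 such regions with a mean of at least 100 tags, 283 had a Pearson r over 0.8 with it and 24 had one over 0.9, across the log2 CPM of the same 12 libraries. These 12 points share library, depth and the PE150 tag, and the median r was 0.00. The 8 highest, taking 1 region per gene, were nearest to Aqp3 (r = 0.986), a water and glycerol channel, Ttll11 (0.948), a tubulin-modifying enzyme, Lrrc32 (0.945), the anchor of latent TGF-beta, and Dst (0.944), a cytoskeletal linker. Scgb1a1 (0.938), a secretoglobin of airway club cells, Trerf1 (0.933), a transcription cofactor, Gpr176 (0.931), an orphan receptor, and P2rx5 (0.931), an ATP-gated channel, followed. The regions left out of the search had an r of 0.422 (upstream Ciita) and 0.599 (downstream Ciita), and of -0.687 to 0.723 over the 18 neighbours, with a median of 0.228.

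The Aqp3 region, chr4:41074089-41104440, averaged 171 ± 11.4 CPM in CD229+CD11c+ and 222 ± 9.71 CPM in CD229+CD11c- microglia, against 186 ± 11.7 CPM in CD229-CD11c- and 191 ± 11.4 CPM in basal microglia (SD, n = 3). It kept the order of the groups seen at Ciita, over a narrower range. All 8 regions were chosen for their correlation with Ciita in these libraries, so nothing is read from a shared order. The Dst region, chr1:33906047-33911480, is annotated as a promoter and had the widest range of the 8 in proportion, at 11.2 ± 3.31 CPM in CD229+CD11c+ and 23.5 ± 5.65 CPM in CD229+CD11c- microglia, against 12.5 ± 4.01 CPM in CD229-CD11c- and 13.5 ± 3.66 CPM in basal microglia. Log2 fold changes of CD229+CD11c- over basal lay between 0.21 and 0.80 in these 8 regions, and those of CD229+CD11c+ over basal between -0.26 and -0.06.

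**Figure D4:**
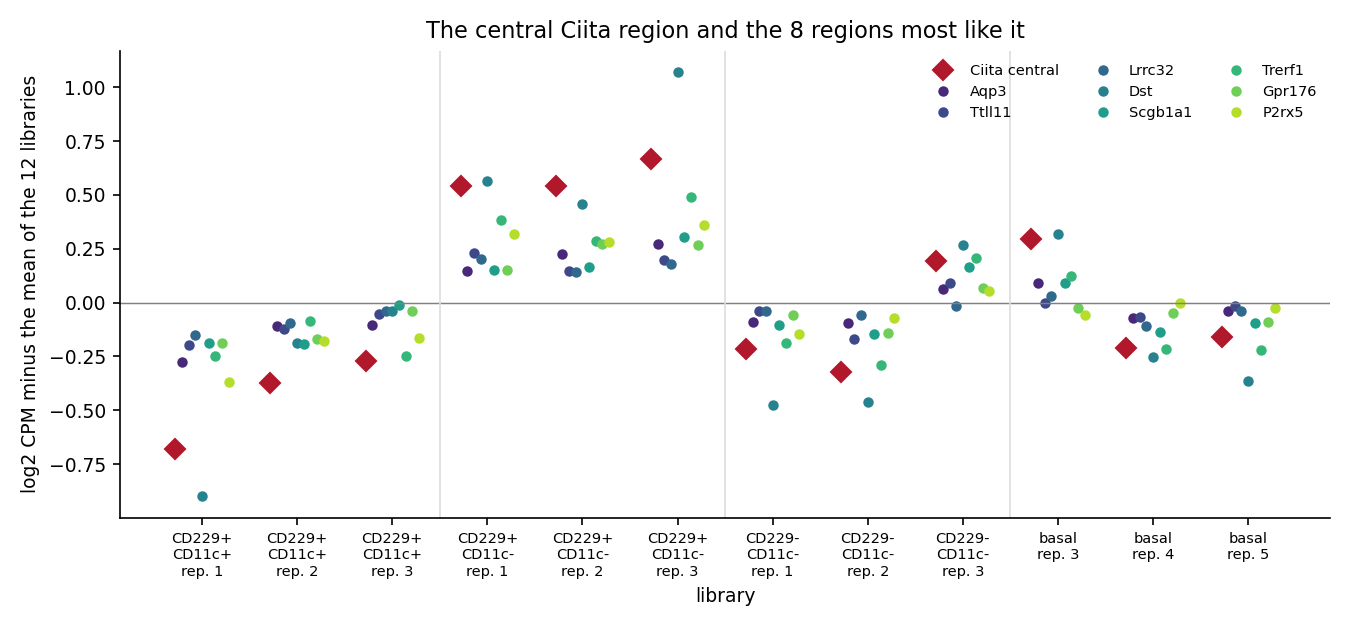
Log2 CPM minus the mean over the 12 libraries, by library, for the central Ciita region (diamonds) and the 8 regions most like it. All 9 are above their own mean in every CD229+CD11c- library and below it in every CD229+CD11c+ library. The 8 were chosen for this likeness, so nothing is read from it.

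Regions of related genes were counted in 2 sets of lists. Lists of the class II pathway itself (class II molecules, antigen processing, CIITA partners, and inducers and regulators) held 26 regions at 12 genes. Lists of genes beside it (class I and Nlrc5, the NLR family, co-stimulation and disease-associated microglia) held 50 regions at 26 genes. The shares of all regions given with the neighbours are the background for the counts without the block. Of the 26 class II regions, 1 rose and 1 fell in CD229+CD11c+ over basal and 2 rose and none fell in CD229+CD11c- over basal (edgeR). Without the block, 1 rose and none fell in CD229+CD11c- over CD229-CD11c-. Their median log2 fold changes were -0.05, 0.02 and 0.09 in these comparisons. In the other 3 comparisons edgeR called 0 of the 26 without the block, and DESeq2 called 0 in each. Unadjusted p-values under 0.05 numbered 2 in CD229+CD11c+ over CD229-CD11c-, 2 in CD229+CD11c+ over CD229+CD11c- and 1 in CD229-CD11c- over basal.

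Of the 50 regions on the lists beside the pathway, none rose and 9 fell in CD229+CD11c+ over basal, and 3 rose and 12 fell in CD229+CD11c- over basal. Disease-associated microglia genes made up 7 of those 9 and 7 of those 12. In CD229+CD11c- over CD229-CD11c-, 2 rose and 8 fell, in CD229+CD11c+ over CD229-CD11c- none rose and 5 fell, and in CD229+CD11c+ over CD229+CD11c- none rose and 2 fell. In CD229-CD11c- over basal edgeR called 0 of the 50, with 3 at an unadjusted p under 0.05 and 0 by DESeq2. With the replicate block, 20 of all 76 list regions were called in CD229+CD11c- over CD229-CD11c-, where 17.5% of all regions were, and 11 of 76 in CD229+CD11c+ over CD229-CD11c-, where 7.69% were. In the first of these, 4 of the 26 class II regions rose and 1 fell, and 5 of the 50 others rose and 10 fell. In the second, 1 of the 26 rose and 1 fell, and 1 of the 50 rose and 8 fell.

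Among the 11 MHC class II genes, the targets of CIITA, only H2-Ab1 and H2-Oa were nearest to a region, with 5 between them, and H2-Ab1 alone was overlapped by one. That region, chr17:34263418-34268220, is annotated as intronic and fills most of the H2-Ab1 gene, which encodes the beta chain of the I-A molecule. It had 8.71, 9.14 and 12.03 CPM in CD229+CD11c+, 8.87, 12.7 and 14.6 CPM in CD229+CD11c-, 12.8, 13.2 and 18.8 CPM in CD229-CD11c- and 16.2, 17.4 and 14.0 CPM in basal libraries. CD229+CD11c+ libraries lay below all CD229-CD11c- and all basal ones, and CD229+CD11c- libraries overlapped both. H2-Ab1 fell in CD229+CD11c+ over basal microglia (log2 -0.66 ± 0.19, adjusted p = 0.0431), and this call was lost with abundance-trend offsets and on leaving out any of 5 of the 6 libraries, with adjusted p-values between 0.000191 and 0.204 over the alternatives. With the replicate number as a block it also fell in CD229+CD11c+ over CD229-CD11c- (adjusted p = 0.00603, against 0.211 without). In CD229+CD11c- over basal its log2 fold change was -0.40 ± 0.19 (adjusted p = 0.183), opposite in sign to that of the central Ciita region. An intergenic region near H2-Oa, which encodes a chain of the inhibitor of peptide loading, was named after its values were seen. It had 16.2, 16.4 and 20.6 CPM in CD229+CD11c+, 20.1, 15.5 and 25.6 CPM in CD229+CD11c-, 12.9, 12.6 and 19.0 CPM in CD229-CD11c- and 16.9, 12.6 and 11.3 CPM in basal libraries, and the groups overlapped. Its log2 fold change in CD229+CD11c- over basal was 0.59 ± 0.19, of the same sign as that of the central Ciita region, and just missed the threshold with edgeR (adjusted p = 0.0501). It passed with DESeq2 (adjusted p = 0.0315) and, that included, in 12 of 21 alternatives, with adjusted p-values from 0.000207 to 0.213. Unlike for the calls, these 21 include leaving out libraries of groups outside the comparison. With edgeR the region passed without CD229+CD11c- replicate 2 (adjusted p = 0.0212) or basal replicate 3 (0.0213). Without any other library of these groups it did not (0.106 to 0.213). With the block the H2-Oa region rose in CD229+CD11c- over CD229-CD11c- (log2 0.45, adjusted p = 0.00678, against 0.187 without).

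None of the 10 genes for processing antigen for class II, such as cathepsins, was nearest to a region, though one assigned elsewhere overlapped Marchf1, a ubiquitin ligase that removes class II from the surface. Of the 11 partners of CIITA on DNA, Rfxap, a subunit of the RFX complex, and Nfyb, a subunit of NF-Y, were nearest to 4 regions, and edgeR called 0 of them in all 6 comparisons, with 0 at an unadjusted p under 0.05 and 0 by DESeq2. Of 20 inducers and regulators of Ciita, 8 had regions, 17 in all. Of these 17, the Socs1 region described above and one nearest to Irf8 rose in CD229+CD11c- over basal. Irf8 encodes an interferon regulatory factor of myeloid cells, and its region lay 150307 bp past the gene's start. The log2 fold change at Irf8 was 0.37 ± 0.11 in CD229+CD11c+ over basal (adjusted p = 0.0425) and 0.35 ± 0.11 in CD229+CD11c- over basal (adjusted p = 0.0312). CD229+CD11c- and basal libraries overlapped there. Both calls were lost with library totals, with abundance-trend offsets and on leaving out any of 4 of the 6 libraries. Over their alternatives the adjusted p-values ran from 4.61e-08 to 0.211 and from 5.8e-09 to 0.597. Regions near Ifng, the cytokine that induces Ciita, and near Irf4, Jak2, Socs3, Il10 and Tlr4 were not called without the block. With it, a region near Ifng fell in CD229+CD11c- over CD229-CD11c- (log2 -0.62, adjusted p = 0.0267, against 0.081 without). The Irf4 region rose there (0.43, adjusted p = 0.00333, against 0.172), as did the Irf8 region (0.16, adjusted p = 0.00914, against 0.417). Irf8 also rose in CD229+CD11c+ over CD229-CD11c- (0.19, adjusted p = 0.00288, against 0.55).

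Nlrc5, the NLR family member that does for MHC class I what CIITA does for class II, had 1 intronic region, chr8:94481790-94485018. It had 4.05, 4.74 and 4.69 CPM in CD229+CD11c+, 3.86, 4.32 and 3.25 CPM in CD229+CD11c-, 8.65, 6.06 and 9.28 CPM in CD229-CD11c- and 7.90, 7.64 and 8.28 CPM in basal libraries. Every CD229+ library was below every CD229-CD11c- and basal library, so in CD229+CD11c- microglia Nlrc5 lay below and the central Ciita region above the basal level. The log2 fold change at Nlrc5 was -0.82 ± 0.20 in CD229+CD11c+ over basal (adjusted p = 0.0193) and -1.06 ± 0.21 in CD229+CD11c- over basal (adjusted p = 0.00126). The first was lost with DESeq2 and on leaving out any of 5 of the 6 libraries, with adjusted p-values from 0.00253 to 0.109. The second held in all alternatives. With the replicate block Nlrc5 also fell in CD229+CD11c+ over CD229-CD11c- (log2 -0.84, adjusted p = 0.00772, against 0.0681 without). The difference between the subsets at Nlrc5 was 0.24 ± 0.23 (adjusted p = 0.725). Among 21 other NLR genes with 8 regions, Nlrp6, an intestinal inflammasome sensor, rose in CD229+CD11c- over basal (0.40 ± 0.07, adjusted p = 0.000382). Regions at Naip1 (-0.75 ± 0.20, adjusted p = 0.012), Nlrc3 (-0.90 ± 0.28, adjusted p = 0.0332) and Nlrp10 (-0.22 ± 0.07, adjusted p = 0.0471) fell. Groups overlapped at Nlrc3, and its call was lost in 5 of 14 alternatives, with adjusted p-values up to 0.168. The Naip1 call was lost without CD229+CD11c- replicate 1 (adjusted p = 0.0957).

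Of 17 co-stimulation genes, whose products act beside class II on T cells, 6 had regions, 17 in all. The region over the promoter of Cd70, the ligand of CD27 on T cells, had 90.7, 92.8 and 98.1 CPM in CD229+CD11c+, 118, 122 and 123 CPM in CD229+CD11c-, 84.1, 80.5 and 94.1 CPM in CD229-CD11c- and 88.8, 81.2 and 79.7 CPM in basal libraries. It rose in CD229+CD11c- over basal (log2 0.54 ± 0.08, adjusted p = 3.27e-05) and fell in CD229+CD11c+ over CD229+CD11c- (-0.36 ± 0.08, adjusted p = 0.027). The call between the CD229+ subsets was lost with library totals, with abundance-trend offsets and without any of 5 of the 6 libraries, with adjusted p-values from 1.7e-06 to 0.213. A region 93151 bp from Cd83, a marker of mature antigen-presenting cells, fell in both CD229+ subsets over basal. The log2 fold change was -0.35 ± 0.09 in CD229+CD11c+ (adjusted p = 0.0191) and -0.29 ± 0.09 in CD229+CD11c- (adjusted p = 0.0258). Each call was lost without any of 4 of the 6 libraries, with adjusted p-values up to 0.113 and 0.102. The other regions nearest to Cd83 were not called over basal. Of 20 disease-associated microglia genes, 10 had regions, and 7 of the 18 regions fell in CD229+CD11c+ over basal and 7 in CD229+CD11c- over basal, with none higher. Lgals3, which encodes galectin-3, changed most of these in CD229+CD11c+ over basal, with 2.89 ± 0.58 CPM in CD229+CD11c+ and 7.36 ± 1.58 CPM in CD229+CD11c- microglia, against 14.4 ± 1.87 CPM in CD229-CD11c- and 20.1 ± 1.72 CPM in basal microglia (SD, n = 3).

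**Figure D5:**
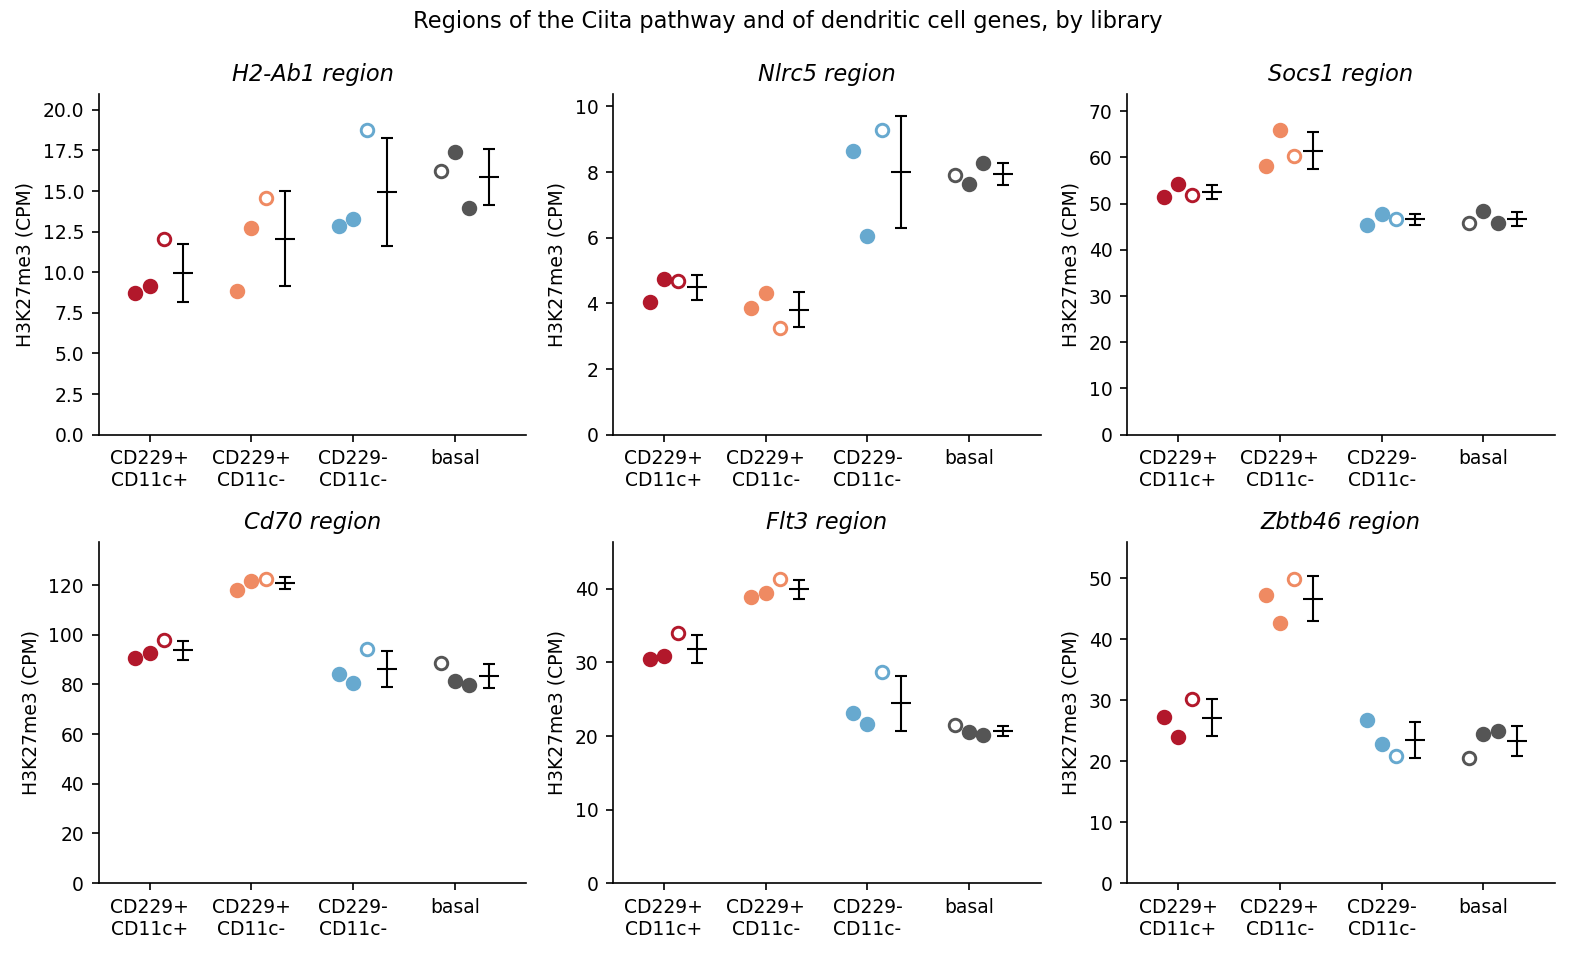
H3K27me3 level in CPM by library at the regions of H2-Ab1, Nlrc5, Socs1, Cd70, Flt3 and Zbtb46 in CD229+CD11c+, CD229+CD11c-, CD229-CD11c- and basal microglia, with mean and SD over 3 libraries and open dots for libraries without the PE150 tag. Socs1, Cd70, Flt3 and Zbtb46 are highest in the CD229+CD11c- libraries, and Nlrc5 is low in both CD229+ subsets, at 3.25 to 4.74 CPM.

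Cell types other than microglia that use Ciita were looked at through their markers. Of 11 dendritic cell genes, 5 were nearest to 1 region each, Kmo, Clec10a, Ccr7, Zbtb46 and Flt3, and the other 6 to none. Their summed level ranged from 295 to 329 CPM in CD229+CD11c+, from 351 to 360 CPM in CD229+CD11c-, from 289 to 318 CPM in CD229-CD11c- and from 286 to 304 CPM in basal libraries. It was thus highest in the same 3 libraries as the central Ciita region, but the genes did not all go this way. At Kmo every CD229+CD11c- library lay below every basal one (log2 fold change -0.245, adjusted p = 0.303 with edgeR). Ccr7, which made up most of the sum, had a log2 fold change of 0.091 in CD229+CD11c- over basal (adjusted p = 0.42). Clec10a had one of 0.348 (adjusted p = 0.279). Kmo, Ccr7 and Clec10a were thus not called in this comparison. Flt3, the growth factor receptor of dendritic cell progenitors, had 30.5, 30.9 and 34.0 CPM in CD229+CD11c+, 38.9, 39.5 and 41.4 CPM in CD229+CD11c-, 23.1, 21.6 and 28.7 CPM in CD229-CD11c- and 21.5, 20.5 and 20.1 CPM in basal libraries. The Flt3 region covers the gene's promoter, and it rose in CD229+CD11c+ over basal (log2 0.62 ± 0.11, adjusted p = 0.00227) and in CD229+CD11c- over basal (0.95 ± 0.11, adjusted p = 4.71e-06). Zbtb46, a transcription factor of conventional dendritic cells, had 27.2, 24.0 and 30.2 CPM in CD229+CD11c+, 47.3, 42.7 and 49.9 CPM in CD229+CD11c-, 26.7, 22.8 and 20.9 CPM in CD229-CD11c- and 20.5, 24.4 and 24.9 CPM in basal libraries. It rose in CD229+CD11c- over basal (1.00 ± 0.12, adjusted p = 4.93e-06) and fell in CD229+CD11c+ over CD229+CD11c- (-0.78 ± 0.12, adjusted p = 0.00431, and 0.0743 without CD229+CD11c+ replicate 2).

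The 4 B cell genes of 12 with regions summed to 796 to 820 CPM in CD229+CD11c+, 788 to 813 CPM in CD229+CD11c-, 772 to 787 CPM in CD229-CD11c- and 760 to 770 CPM in basal libraries. Of their 21 regions, 2 rose and 1 fell in CD229+CD11c- over basal (edgeR). Both that rose were at Ebf1, the stronger with a log2 fold change of 0.46 (adjusted p = 8.07e-05). Monocyte and border macrophage genes, 3 of 10 with regions, summed to 185 to 212 CPM in CD229+CD11c+, 200 to 236 CPM in CD229+CD11c-, 180 to 236 CPM in CD229-CD11c- and 200 to 212 CPM in basal libraries. Neuron, astrocyte and oligodendrocyte genes, 11 of 14 with regions, summed to 2503 to 2791 CPM in CD229+CD11c+, 2464 to 2859 CPM in CD229+CD11c-, 2129 to 2655 CPM in CD229-CD11c- and 2134 to 2394 CPM in basal libraries. Of their 37 regions, 6 rose and 2 fell in CD229+CD11c- over basal (edgeR), where 9.52% of all regions rose and 3.47% fell. Regions that rose included those at Olig2 (log2 0.59, adjusted p = 3.13e-06) and Gad2 (0.56, adjusted p = 8.82e-06). A rise in CD229+CD11c- over basal was thus not confined to the dendritic cell list. Of 14 microglia genes none was overlapped by a region, and the 4 nearest to one summed to 78.6 to 96.1 CPM in CD229+CD11c+, 83.1 to 96.6 CPM in CD229+CD11c-, 84.0 to 112 CPM in CD229-CD11c- and 96.1 to 105 CPM in basal libraries. For CD229+CD11c- over basal, edgeR called 0 of the 8 monocyte and border macrophage regions and 0 of the 7 microglia regions. Unadjusted p-values under 0.05 numbered 0 and 1, and DESeq2 also called 0 of each. The part of other cell types in the values at Ciita was not tested.

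Depth ranged from 7740002 to 11362168 tags per library within the regions. With edgeR, CD229+CD11c- over CD229-CD11c- microglia gave 2199 called regions of 26326 (4595 with the replicate block) and CD229+CD11c+ over CD229-CD11c- gave 144 (2025 with it). CD229-CD11c- over basal gave 0, with 1103 at an unadjusted p under 0.05 and 0 by DESeq2. Scaling to library totals moved the median of all regions to -0.16 in CD229+CD11c- over basal and to -0.14 in CD229+CD11c- over CD229-CD11c-. The fold changes of the central Ciita region kept their signs under each scaling tried. Of the calls, 74.7% were higher for CD229+CD11c+ over basal (46.3% with library totals) and 73.3% for CD229+CD11c- over basal (29.4% with library totals, 61.0% with abundance-trend offsets). The share was 80.8% for CD229+CD11c- over CD229-CD11c- (38.4% and 67.2% with the same 2 scalings) and 72.2% for CD229+CD11c+ over CD229-CD11c- (54.5% and 55.4%, and 82.3% with DESeq2).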

How the data were processed

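H3K27me3 ChIP-seq was analysed from files the authors deposited. Named in the submitters' processing notes, without steps, are HOMER, DESeq2, STAR 2.7.0f, fastp 0.20.0 and Bowtie2 2.3.4.1. Per the file headers, the authors called 26325 regions with HOMER on basal replicates 1 and 2 against input, on mm10, at a size of 1250, a log2 fold of 1 and a false discovery rate of 0.05. The deposited table of these regions holds each region's size in bp (the other unit), a peak score, log2 levels, log2 fold over input and p-values. The score columns that are 1 or 0 throughout were not used. The authors' raw tag count per region was deposited for 12 libraries and 26326 regions, those called plus 1 more row. Inputs of these libraries have no count column, and the authors' normalised table was not used.

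Counts were fitted in edgeR 4.0.16 (R 4.3.3): filterByExpr, which removed 0 of 26326 regions, TMM, and robust quasi-likelihood F-tests with 4 groups in 1 model. P-values were adjusted by Benjamini-Hochberg over all regions of each of 6 comparisons, called under 0.05. A prior count of 2 went into log2 CPM. DESeq2 1.42.0 was an alternative. The scripts were tested on simulated data.

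Ciita, the lists and the rules were chosen with earlier results of these data known. Named besides Ciita were all neighbours within 500 kb, some of the called regions of the lists, and the 8 regions most like the central one. Called list regions that are not named are in the counts only. A region belongs to the gene the deposited annotation calls nearest. Deviations of same-numbered libraries from their group means correlated at 0.24, 0.13 and 0.42 for CD229+CD11c+ with CD229-CD11c-, and at 0.28, 0.13 and 0.46 for CD229+CD11c- with CD229-CD11c-. Every one being over 0.1, these numbers were treated as a pairing in these comparisons. Blocked values are given for some of the results they change, not for all. Replicates 1 and 2 carry the PE150 tag and 3 does not, and differently numbered tagged libraries correlated at 0.13 to 0.18 and at 0.14 to 0.25, so pairing and tag cannot be told apart. Promoter sequences are from RefSeq (GRCm38.p6).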

Additional observations from a re-analysis of the deposited data

Results flagged for a closer look

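Of the regions named above, 5 had all CD229+CD11c+ libraries on one side of the basal libraries and all CD229+CD11c- libraries on the other. The central Ciita region had log2 fold changes of -0.42 for CD229+CD11c+ over basal and 0.60 for CD229+CD11c- over basal. The Aqp3 region had -0.16 and 0.22, and the P2rx5 region had -0.21 and 0.35, for the same comparisons. The Pde4a region had -1.39 and 0.75, and the Plk2 region had -0.61 and 0.41. Pde4a and Plk2 were named because they show this pattern. Aqp3 and P2rx5 were named for their likeness to Ciita, so their pattern is not independent of it. The difference between the subsets was not tested in any of the 5, because they were chosen on these values. In each of the 4 groups, 3 libraries are too few to judge a single outlying library.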

How the results depend on the processing

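Central Ciita log2 fold changes kept their signs in all alternatives other than leaving out a library, and moved by less than the spread between replicates. Where groups do not overlap, leaving out a library cannot turn the sign. Without 1 library at a time they ranged from -1.12 to -0.91 (CD229+CD11c+ over CD229+CD11c-), -0.44 to -0.16 (CD229+CD11c+ over CD229-CD11c-), -0.52 to -0.25 (CD229+CD11c+ over basal), 0.58 to 0.86 (CD229+CD11c- over CD229-CD11c-), 0.51 to 0.78 (CD229+CD11c- over basal) and -0.26 to 0.10 (CD229-CD11c- over basal), the last being the one that changed sign. Counts of called regions moved more. For CD229+CD11c+ over CD229+CD11c-, 217 became 28 with library totals, 48 with abundance-trend offsets, 668 with DESeq2, 1920 with the PE150 tag in the model (the covariate), 1397 in tagged libraries only, 631 with these groups only and 9 to 157 without 1 library (9 without CD229+CD11c+ replicate 2). For CD229+CD11c+ over CD229-CD11c-, 144 became 92 with abundance-trend offsets, 322 with DESeq2, 1638 with the covariate, 933 in tagged libraries, 50 with these groups only and 44 to 271 without 1 library. For CD229+CD11c+ over basal, 1525 became 4538 with the covariate, 4274 in tagged libraries, 2977 with these groups only and 442 to 1605 without 1 library (442 without basal replicate 4). For CD229+CD11c- over CD229-CD11c-, 2199 became 4370 with the covariate, 3309 in tagged libraries and 1532 to 2576 without 1 library. For CD229+CD11c- over basal, 3419 became 5367 with library totals, 5828 with the covariate, 5532 in tagged libraries and 2084 to 3294 without 1 library. For CD229-CD11c- over basal, 0 became 33 with the covariate, 916 in tagged libraries and 0 to 30 without 1 library. Of the 18 neighbours, the count in CD229+CD11c- over basal was 4 with library totals, 2 with abundance-trend offsets, in tagged libraries or with these groups only, 3 with the covariate and 0 within 250 kb. It was 1 with library totals or the covariate and 2 in tagged libraries for CD229+CD11c+ over basal. It was 2 with library totals or the covariate, 0 within 250 kb and 1 to 2 without 1 library for CD229+CD11c- over CD229-CD11c-, and 1 with the covariate or in tagged libraries for CD229+CD11c+ over CD229-CD11c-. Of the 76 list regions, the count was 17 with the covariate, 18 in tagged libraries and 5 to 11 without 1 library for CD229+CD11c+ over basal. It was 11 with a mean count of at least 100, 26 in tagged libraries and 12 to 16 without 1 library for CD229+CD11c- over basal, and 3 in tagged libraries for CD229-CD11c- over basal. It was 19 with the covariate and 9 to 13 without 1 library for CD229+CD11c- over CD229-CD11c-. It was 3 with DESeq2, with a mean count of at least 100 or with these groups only, 10 with the covariate and 3 to 5 without 1 library for CD229+CD11c+ over CD229-CD11c-. It was 1 with library totals or abundance-trend offsets, 7 with the covariate, 5 in tagged libraries and 0 to 2 without 1 library for CD229+CD11c+ over CD229+CD11c-. The cause of these changes was not tested.

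With the replicate block, 4595 regions were called for CD229+CD11c- over CD229-CD11c- (2 neighbours, 20 list regions) and 2025 for CD229+CD11c+ over CD229-CD11c- (1 neighbour, 11 list regions). For CD229+CD11c+ over CD229+CD11c- same-numbered libraries correlated at 0.20, 0.08 and 0.33. As 0.08 is under 0.1, the rule did not take the number as a pairing there. If the number does pair libraries in the other comparisons, it must pair them in this comparison too, so pairing stays unsettled. With the block this comparison gave 2199 regions, 1 neighbour (Socs1, log2 -0.22, adjusted p = 0.0486) and 9 list regions. Basal microglia shared only number 3 with the other groups and were not blocked.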
